A study of Mus musculus with 12 samples.

Results

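Control cells of the mouse forebrain study were followed from 1 day to 5 days after a control knockdown, and the change of every gene over that interval is described. All control arrays of the series were used, 6 of 12 samples: 3 taken at 5 days and 3 taken at 1 day. Both groups came from C57BL/6 mice, carried a control knockdown given on E14.5, and were named mouse neurons in the labels. The other 6 samples were knockdowns of the zinc finger protein ZNF335, whose mouse gene is Zfp335, 3 at 5 days and 3 at 1 day, and entered the normalization, the filter and the estimate of spread, and were compared with the controls. The series design gives short hairpin RNA and fluorescence-activated sorting as the method, whereas the sample titles of the knockdowns give small interfering RNA, and the sources used here do not name the marker used for the sort. The labels do not say whether the 3 samples of a group are separate animals or cultures, and the p-values therefore describe only how these arrays vary, technical variation included.

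Several labels limit the 5-day and 1-day groups as a model of age. All samples carried E15.5 as stage and postnatal day 0 as harvest, so the groups rest on the time label alone. In the description field, all 5-day samples were assigned to the opposite treatment to their titles and source names, and the titles were followed. The 1-day arrays shared a chip lot that no 5-day array had, and their fluidics stations also differed, so time and array batch cannot be told apart. Of the 5-day controls, 1 was read on a different scanner from its group's other arrays and from the 1-day controls.

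During this stage of cortical development, radial glia lining the ventricle divide and give rise to intermediate progenitors, which produce the excitatory neurons of the layers, deep layers before upper layers. Inhibitory interneurons are born in the ventral forebrain under the Dlx homeobox factors and migrate into the cortex. Around birth the progenitors turn to making astrocytes and oligodendrocyte precursors, while the neurons extend axons, switch their RNA splicing programme and assemble synapses.

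Between 1 day and 5 days, 287 genes rose and 177 fell in control cells, which is 3.78% of the 12263 genes tested (2.34% higher and 1.44% lower), at an adjusted p below 0.05 in limma. Genes were read by their brightest probe set on the scale of log2(quantile normalized intensity + 16), where a difference of 1 is a doubling and 4 is the floor. Genes of interneurons, astrocytes and oligodendrocyte precursors were among those that rose, and genes of DNA replication, mitosis and intermediate progenitors among those that fell after quantile normalization. At probe set level, 547 were higher and 339 lower among 27022, or 3.28% (2.02% and 1.25%). The changes were large in places, with 95 of the genes that rose and 39 of those that fell moving by at least 2 on the log2 scale. The 3 values at 5 days lay outside the 3 values at 1 day for all 464 of these genes, which was also so for 34.1% of all genes tested.

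**Figure D1:**
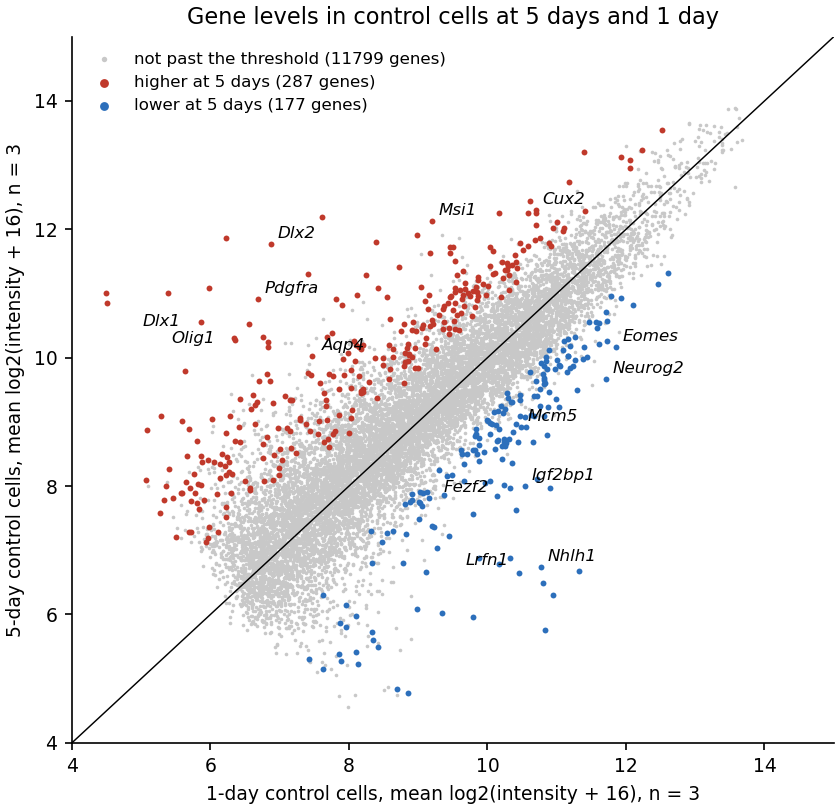
Mean level of each of the 12263 genes in 5-day control cells (vertical axis) against 1-day control cells (horizontal axis), both as log2(intensity + 16) over 3 arrays. The 287 genes that were higher at 5 days (red) lie above the line of equal levels and the 177 that were lower (blue) lie below it.

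The direction of the smaller decreases depended on the scaling of the arrays. Deposited intensities averaged 451 to 529 on the 5-day control arrays and 188 to 239 on the 1-day control arrays (means trimmed at both ends), so every call is relative to the other genes on the array. Quantile normalization left the median gene at 0.063 on the log2 scale and 61.9% of the called genes were higher at 5 days. With the array medians brought to 1 level the median gene stood at 0.967 and 98.1% of called genes were higher, and without normalization these were 1.12 and 98.7%. Of the 177 genes that were lower, 113 and 100 stayed below 0 under those scalings, and 172 under each stayed below the median gene. All 287 that were higher stayed above the median gene under both.

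Spread between arrays also differed. The median SD over 3 arrays was 0.21 in 5-day controls and 0.53 in 1-day controls. The 1-day control 2 stood apart, with correlations of 0.671 and 0.775 to the other 1-day controls over probe sets, which correlated at 0.923 with each other. Its hybridisation control probe sets averaged 12.5, against 10.6 and 11.6 on these, on the log2 scale. RNA quality moved with time, since the ratio of the 3' to the 5' probe set of Actb, which grows as RNA degrades, was 1.71, 1.64 and 1.78 on the 5-day control arrays and 2.10, 2.51 and 2.91 on the 1-day control arrays. For Gapdh these ratios were 1.80, 1.78 and 1.93 at 5 days against 2.06, 2.09 and 2.22 at 1 day. The part of RNA quality in the changes was not tested.

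With 1 control array left out at a time, between 67 and 191 genes were higher and between 40 and 107 lower. No sign could turn in these fits, because the 5-day and 1-day values of the 464 called genes do not overlap. In all 6 fits 58 genes were higher and 35 lower. Higher and lower genes numbered 82 and 42 without 5-day control 1, 67 and 40 without 5-day control 2, 70 and 68 without 5-day control 3, 191 and 102 without 1-day control 1, 167 and 107 without 1-day control 2, and 89 and 47 without 1-day control 3. Of the 79 named genes past the threshold, 38 passed in all 6 fits, and they are called robust below for brevity, a word that does not cover the scaling.

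Markers of inhibitory interneurons rose at 5 days. The marker and pathway lists used here and below were chosen with earlier results of these data known, so their counts and medians only describe. Of 12 kept members of the list, 6 passed as higher and none as lower, with a median of 1.54. Over all genes tested 2.34% were higher and the median was 0.063. Dlx2, a homeobox factor that specifies ventral forebrain progenitors and interneurons, was at 11.71, 11.84 and 11.77 in the 5-day controls and 7.5, 6.96 and 6.17 in the 1-day controls. Its 5-day values all lay more than 4 units above the 1-day values, with a log2 fold change of 4.90 ± 0.46 (SE, adjusted p = 0.000244), a 29.8-fold difference, and it was robust. Dlx1, its neighbour and partner, was at 10.48, 10.67 and 10.50 in 5-day controls against 6.80, 5.56 and 5.24 in 1-day controls (4.68 ± 0.69, adjusted p = 0.00604), also robust. Dlx5 and Dlx6, which act downstream of them, rose by 2.61 ± 0.45 (adjusted p = 0.0141) and 1.81 ± 0.28 (adjusted p = 0.00716). Dlx5 missed the threshold without any of the 3 5-day controls or without 1-day control 3 (adjusted p = 0.0535 to 0.0721), and Dlx6 without 5-day control 2 (0.0501). In bulk samples, more cells of a type and more RNA per cell cannot be told apart.

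Oligodendrocyte precursor markers rose as well, 3 of 10 kept members, with none lower and a median of 1.70. Pdgfra, the receptor that marks these precursors, was at 11.05, 10.84 and 10.85 in 5-day controls and 7.01, 6.91 and 6.14 in 1-day controls. The groups were separated by more than 3 units, and the change was 4.23 ± 0.33 (adjusted p = 5.58e-05), an 18.7-fold difference. Olig1, a basic helix-loop-helix factor of the lineage, was at 10.15, 10.35 and 10.40 in 5-day controls against 6.25, 6.06 and 6.72 in 1-day controls (3.96 ± 0.28, adjusted p = 2.77e-05). Sox8, a SoxE factor of glia, reached 9.29, 9.39 and 9.37 at 5 days against 6.87, 7.42 and 7.23 at 1 day (2.17 ± 0.29, adjusted p = 0.00327). All 3 were robust. A second probe set of Pdgfra was at 0.84 and did not pass.

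Among astrocyte markers, 5 of 15 kept members rose and none fell, with a median of 1.57. Aqp4, the water channel of astrocyte end-feet, was at 10.09, 9.68 and 10.32 in 5-day controls and 7.38, 7.75 and 7.25 in 1-day controls, with no overlap (2.57 ± 0.40, adjusted p = 0.00846), and was robust. Sparcl1, a secreted synapse-promoting protein, rose by 2.93 ± 0.52 (adjusted p = 0.015), and Tnc, an extracellular matrix protein shared with radial glia, rose by 2.17 ± 0.44 (adjusted p = 0.0266). Gfap, the intermediate filament of astrocytes, rose by 2.80 ± 0.64 (adjusted p = 0.0437). These 3 were less secure by their brightest probe set: Sparcl1 was lost in 4 of the 6 fits (adjusted p = 0.054 to 0.0787), Tnc in 5 (0.0765 to 0.11) and Gfap in all 6 (0.0747 to 0.165). Another probe set of Gfap also passed as higher (3.95), while that of Tnc was at 1.44 without passing. Sparcl1 was lost without any of the 3 5-day controls or without 1-day control 3, and Tnc in all fits except the one without 1-day control 3. Further glial genes outside the list were named because they were among those that changed most, so they add no support to the list. They were robust. Hepacam, a cell adhesion protein of glia, was at 9.43, 9.67 and 10.27 in 5-day controls and 5.29, 6.05 and 5.55 in 1-day controls (4.16 ± 0.38, adjusted p = 0.000216). Slc6a11, a GABA transporter of astrocytes, was at 10.40, 10.56 and 10.62 against 6.87, 5.79 and 7.0 in 1-day controls (3.98 ± 0.43, adjusted p = 0.000597).

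The direction of the 3 cell type medians held in each alternative. Under the 2 scalings without quantile normalization a median above 0 says little, since the median gene itself stood at 0.967 and 1.12. Without 1-day control 2 the lists had 4 interneuron, 3 oligodendrocyte precursor and 2 astrocyte members past the threshold, and without 5-day control 1 they had 3, 3 and 1. Interneuron members past the threshold numbered 2 without 5-day control 2. Markers of other cells moved with time on some arrays. Microglia markers had a median of 1.47 over 14 kept members, with 0 past the threshold. Their mean level was 10.18, 7.83 and 8.59 on the 5-day control arrays and 8.14, 5.90 and 7.94 on the 1-day control arrays, so the groups overlapped. Endothelial and pericyte markers (15 kept, 0 past) were at 9.99, 7.49 and 8.34 on the 5-day arrays and 8.06, 7.17 and 7.64 on the 1-day arrays. Both were highest on 5-day control 1. Microglia are the brain's resident macrophages, and C1qa, a complement subunit of theirs, read 10.06, 7.97 and 8.63 at 5 days and 8.02, 4.39 and 7.78 at 1 day. Their part in the glial changes was not tested.

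**Figure D2:**
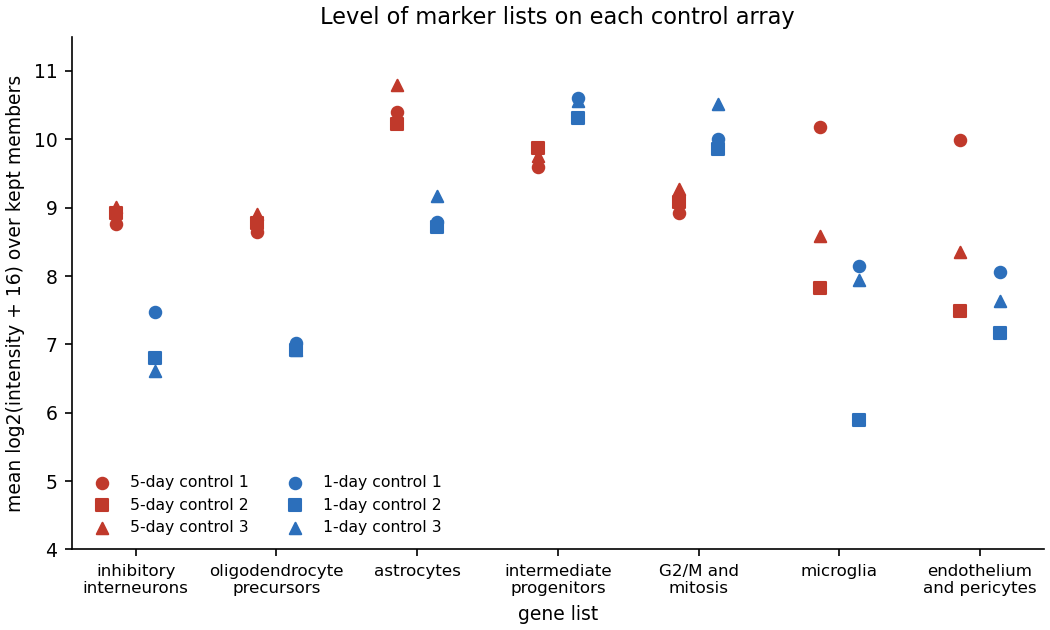
Mean level of the kept members of 7 marker lists, as log2(intensity + 16), on each of the 3 5-day control arrays (red) and 3 1-day control arrays (blue). The interneuron, oligodendrocyte precursor and astrocyte lists are separated between the times, while the microglia list reads 10.18 on 5-day control 1 and overlaps between the times.

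Genes of the splicing switch in neurons rose in part, with 4 of 28 kept members higher, none lower and a median of 0.40. Msi1, an RNA-binding protein of neural progenitors and glia, was at 12.12, 12.12 and 12.13 in 5-day controls and 9.01, 9.61 and 8.98 in 1-day controls (2.92 ± 0.28, adjusted p = 0.000303), while a further Msi1 probe set was at -0.66. Srrm4, which drives inclusion of neuronal microexons, was at 11.56, 11.58 and 11.39 in 5-day controls against 10.14, 9.51 and 8.96 in 1-day controls (1.98 ± 0.29, adjusted p = 0.00558), with its other probe sets at -0.37 and -0.39. Both were robust by their brightest probe set. Khdrbs3 and Rbfox1, neuronal splicing regulators, rose by 1.38 ± 0.24 (adjusted p = 0.0149) and 1.23 ± 0.27 (adjusted p = 0.0384), and were lost in 3 and 5 of the 6 fits (to 0.0924 and 0.17). Rbfox1 was lost in each fit except the one without 1-day control 2, and Khdrbs3 without 5-day controls 2 or 3 or 1-day control 3. Ptbp2, a brake on neuronal splicing, was at 0.87 ± 0.26 and did not pass (adjusted p = 0.109).

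Layer markers divided. Cux2, a homeobox factor of upper-layer neurons, was at 12.20, 12.40 and 12.29 in 5-day controls and 10.79, 10.65 and 10.65 in 1-day controls (1.6 ± 0.24, adjusted p = 0.00665), robust, and the only 1 of 14 kept upper-layer markers to pass. Its other probe sets gave -0.16 and 1.18. Of 14 kept deep-layer markers, 2 fell and none rose, against 4 higher and 1 lower with medians aligned and 5 higher and 1 lower without normalization. Fezf2, which specifies subcerebral projection neurons, was at 7.68, 7.83 and 8.42 in 5-day controls and 11.22, 9.97 and 9.80 in 1-day controls (-2.35 ± 0.55, adjusted p = 0.0474). Pcp4, a calmodulin regulator, fell by 1.42 ± 0.32 (adjusted p = 0.0425), and its adjusted p was 0.0615 with the replicate number as a block (called blocked below). Both were lost in all 6 fits, with adjusted p from 0.0622 to 0.186. Mef2c, a factor of upper-layer neuron maturation, was at 2.28 ± 0.55 and did not pass (adjusted p = 0.0529), but did in the blocked fit (0.0379). Its 4 other probe sets were at 1.43 to 2.78, and 2 of them passed.

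Few genes of synapses and excitability passed, and those that did were higher. Over all genes tested 2.34% were higher, so 1 or 2 calls in a list say little about that list. Of synaptic vesicle genes, 1 of 26 rose, Syt4, a synaptotagmin of dense-core vesicles, by 1.24 ± 0.25 (adjusted p = 0.0292). Of postsynaptic genes, 2 of 26 rose: Dlg2, a scaffold of the PSD, by 1.62 ± 0.28 (adjusted p = 0.014), and Nrxn3, a neurexin, by 1.66 ± 0.34 (adjusted p = 0.0294). Of ionotropic glutamate receptor genes, 1 of 12 rose, Gria2, an AMPA receptor subunit, by 1.32 ± 0.30 (adjusted p = 0.0408), with a blocked adjusted p of 0.0617. Of voltage-gated channel genes, 2 of 23 rose, Scn3a, an embryonic sodium channel, by 1.33 ± 0.29 and Cacnb4, a calcium channel subunit, by 1.05 ± 0.25, whose blocked adjusted p was 0.0634. The list medians were 0.85, 0.37, 0.55 and 0.47, and none of the GABA-A receptor and chloride transporter genes passed (0 of 11, median 0.59). Syt4, Gria2, Scn3a and Cacnb4 were lost in all 6 fits (adjusted p = 0.0521 to 0.186), Dlg2 in 4 and Nrxn3 in 5 (to 0.123). Other probe sets of Gria2 (1.61 and 2.58) and Syt4 (1.30) also passed as higher. Those of Dlg2 (1.17), Nrxn3 (-0.43 and 1.06) and Cacnb4 (-0.14 and 0.86) did not pass. Dlg2 was lost without any of the 3 5-day controls or without 1-day control 3, and Nrxn3 without any control array but 1-day control 2.

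Genes of wiring gave 2 of 30 guidance members higher and none lower, where 2.34% of all genes tested were higher. Robo1, a Slit receptor, was at 12.50, 12.55 and 12.28 in 5-day controls and 11.07, 11.10 and 9.66 in 1-day controls (1.83 ± 0.37, adjusted p = 0.0284). Cntn1, an axonal adhesion protein, rose by 2.93 ± 0.55 (adjusted p = 0.0196). Among microtubule and migration genes, 1 of 30 rose, which is near that share. It was Stmn3, a tubulin regulator, which rose by 0.89 ± 0.18 (adjusted p = 0.0296). Robo1 was lost without any of the 3 5-day controls or without 1-day control 3, Cntn1 without any control array except 1-day control 1, and Stmn3 in all 6 fits (to 0.147).

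Genes of intermediate progenitors and newborn neurons fell, 5 of 18 kept members, with none higher and a median of -0.91. Under the 2 scalings without quantile normalization this median was 0.38 and 0.53, below the median gene in both, and the calls became 5 higher and 2 lower with medians aligned and 6 higher and 2 lower without normalization. Neurog2 and Nhlh1 passed as lower under both, and Eomes under neither (adjusted p = 0.275 and 0.197). Neurog2, the proneural factor of the dorsal lineage, was at 9.51, 9.73 and 9.76 in 5-day controls and 11.43, 11.88 and 11.82 in 1-day controls (-2.04 ± 0.23, adjusted p = 0.000995). Eomes, which marks intermediate progenitors, was at 9.97, 10.44 and 10.10 in 5-day controls and 11.99, 11.65 and 11.93 in 1-day controls (-1.69 ± 0.26, adjusted p = 0.00716). Nhlh1, a transient factor of newborn neurons, was at 5.93, 6.83 and 7.46 in 5-day controls and 11.15, 10.61 and 10.56 in 1-day controls (-4.04 ± 0.40, adjusted p = 0.00033), 16.4-fold lower. All 3 were robust. Mfng, a fringe modifier of Notch, fell by 1.41 ± 0.26 (adjusted p = 0.0169) and was lost in every fit but that without 1-day control 2.

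Radial glia markers split, with 2 of 20 higher and 1 lower, where 2.34% of all genes tested were higher and 1.44% lower. Tead2, a partner of the Yap coactivator in progenitors, was at 8.47, 8.63 and 8.95 in 5-day controls and 10.40, 10.20 and 10.74 in 1-day controls (-1.76 ± 0.27, adjusted p = 0.00668), robust. Ptprz1, a receptor phosphatase of radial glia and glial precursors, rose by 1.55 ± 0.25 (adjusted p = 0.00992) and was lost without 5-day control 3 or 1 (0.0503 and 0.0574). Igf2bp1, an RNA-binding protein of early embryonic progenitors, was at 7.95, 7.89 and 8.18 in 5-day controls and 10.62, 10.26 and 10.76 in 1-day controls (-2.54 ± 0.24, adjusted p = 0.000263), robust, and its other probe sets gave -4.15 and -1.43. It was the 1 of 21 kept temporal and gliogenic regulators to pass. Hmga2, a chromatin protein of young progenitors, read 8.50, 7.95 and 7.01 at 5 days and 8.51, 9.42 and 9.78 at 1 day, and did not pass (adjusted p = 0.252).

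**Figure D3:**
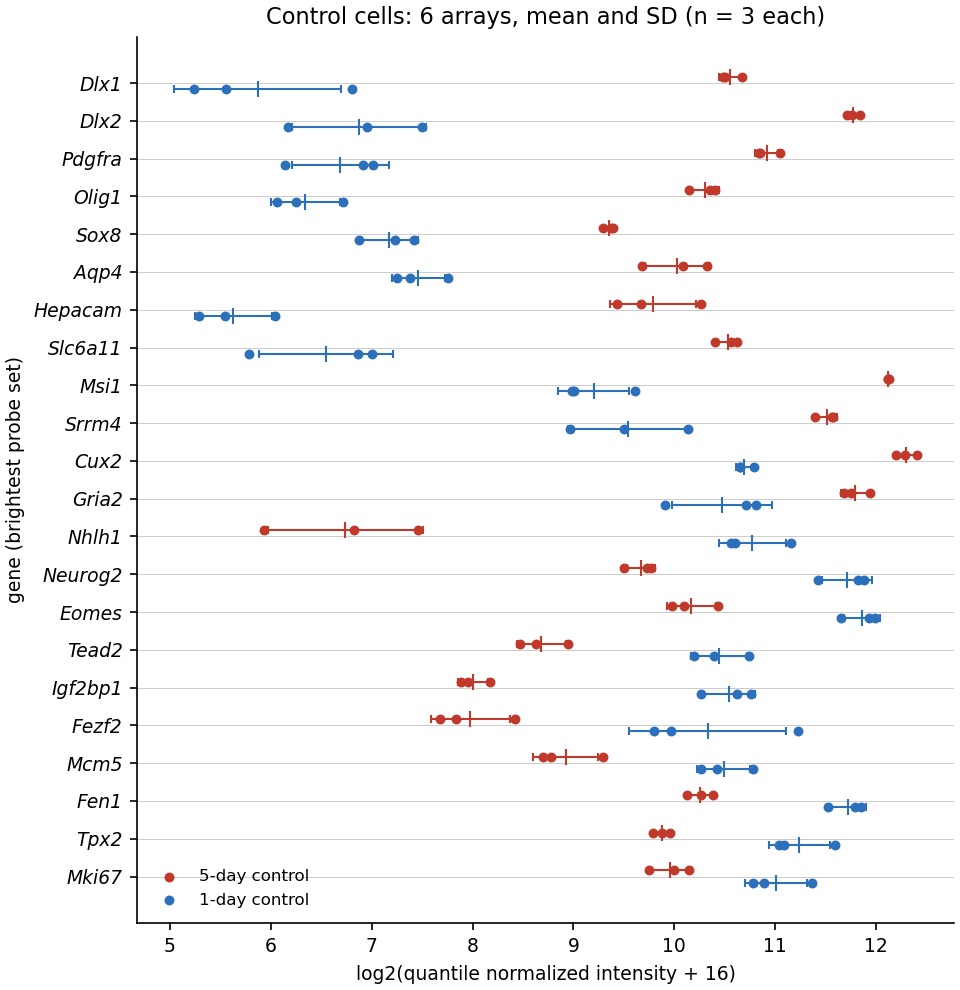
Level of 22 named genes, as log2(intensity + 16), on the 3 5-day control arrays (red, upper row of each pair) and 3 1-day control arrays (blue, lower row), with the mean and SD. Dlx2 is near 11.77 at 5 days against 6.87 at 1 day, and Nhlh1 near 6.74 against 10.77.

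Of the cell cycle genes that passed, none was higher at 5 days. All 28 kept genes of DNA replication and all 29 of G2/M and mitosis had a fold change below 0, and 7 and 11 passed the test, with medians of -0.93 and -1.05. Under the scalings without quantile normalization the medians were above 0 (0.19 and 0.35 for replication, 0.11 and 0.26 for mitosis) but below the median gene. None of the 18 calls stood there: with medians aligned no gene of either list was lower and 1 of each was higher, and without normalization none was lower and 5 and 3 were higher. The decreases below are therefore relative to the other genes on quantile normalized arrays. Mcm5, a subunit of the replicative helicase, was at 8.70, 8.77 and 9.29 in 5-day controls and 10.27, 10.42 and 10.78 in 1-day controls (-1.57 ± 0.24, adjusted p = 0.00655). Fen1, a flap endonuclease, was at 10.26, 10.13 and 10.38 in 5-day controls and 11.79, 11.52 and 11.85 in 1-day controls (-1.46 ± 0.22, adjusted p = 0.00685). Tpx2, a spindle assembly factor, was at 9.78, 9.88 and 9.96 in 5-day controls and 11.09, 11.04 and 11.59 in 1-day controls (-1.37 ± 0.21, adjusted p = 0.00732), though its fold change was 0.07 without normalization. All 3 were robust. Bub1, a spindle checkpoint kinase, fell by 1.5 ± 0.24 (adjusted p = 0.00992), Cdt1, a licensing factor, by 1.53 ± 0.27 (adjusted p = 0.015) and Pold1, a polymerase subunit, by 1.59 ± 0.28 (adjusted p = 0.0155). Ccnb2, a mitotic cyclin, fell by 1.6 ± 0.29 (adjusted p = 0.0168), and Nusap1, a spindle protein, by 1.24 ± 0.21 (adjusted p = 0.0126). Mki67, the proliferation antigen, was at 10.00, 9.75 and 10.14 in 5-day controls and 10.78, 10.89 and 11.36 in 1-day controls (-1.05 ± 0.22, adjusted p = 0.0317). Nusap1 and Mki67 were above 0 under both scalings without quantile normalization (0.11 and 0.30 with medians aligned).

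The single-array losses among cell cycle genes mostly involved the 5-day controls. Bub1 was lost without 5-day control 2 or 1 (0.0584 and 0.059), Pold1 and Nusap1 without these or 1-day control 3, Cdt1 without these, 1-day control 3 or 1-day control 2, Ccnb2 without any 5-day control or 1-day control 3, and Mki67 without any control array but 1-day control 1. Without 5-day control 1 or 2, 2 replication genes and 1 mitosis gene passed, and without 1-day control 2, 3 and 8. No G1 cyclin or cell-cycle exit inhibitor passed (0 of 19).

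The promoters of 4 of the cell cycle genes that fell together are shown for their motifs (RefSeq, GRCm38.p6, 250 bases before to 50 after the start). They were taken in order of p in these data, 2 from each list, among genes with a single listed start. Capitals mark any match, on either strand, to the E2F motifs TTTCCCGC, TTTGGCGC and TTTCGCGC, to CCAAT, to TTTGAA or to TGACGTCA, and adjoining or overlapping matches run together, as for the 2 overlapping E2F matches of Mcm5. Mcm5 lies at chr8:75109259-75109558 on the plus strand, Cdt1 at chr8:122567765-122568064 on the plus strand, Bub1 at chr2:127831810-127832109 on the minus strand and Nusap1 at chr2:119618048-119618347 on the plus strand.
Mcm5: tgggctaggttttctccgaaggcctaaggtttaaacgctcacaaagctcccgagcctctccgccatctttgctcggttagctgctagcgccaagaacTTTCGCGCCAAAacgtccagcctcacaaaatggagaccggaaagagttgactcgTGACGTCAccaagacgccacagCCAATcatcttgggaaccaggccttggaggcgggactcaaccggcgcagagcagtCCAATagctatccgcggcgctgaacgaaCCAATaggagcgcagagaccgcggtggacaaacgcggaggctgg
Cdt1: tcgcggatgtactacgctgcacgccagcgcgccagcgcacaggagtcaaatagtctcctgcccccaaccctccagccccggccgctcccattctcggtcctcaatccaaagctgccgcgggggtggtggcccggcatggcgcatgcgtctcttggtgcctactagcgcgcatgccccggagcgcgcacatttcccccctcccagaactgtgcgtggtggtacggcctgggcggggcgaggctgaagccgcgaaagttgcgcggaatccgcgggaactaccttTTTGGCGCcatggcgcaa
Bub1: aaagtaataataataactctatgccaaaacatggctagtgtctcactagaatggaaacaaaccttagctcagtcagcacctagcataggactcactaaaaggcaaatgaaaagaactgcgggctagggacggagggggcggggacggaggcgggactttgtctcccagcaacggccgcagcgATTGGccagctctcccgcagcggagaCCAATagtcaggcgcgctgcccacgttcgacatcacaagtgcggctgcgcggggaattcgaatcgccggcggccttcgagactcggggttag
Nusap1: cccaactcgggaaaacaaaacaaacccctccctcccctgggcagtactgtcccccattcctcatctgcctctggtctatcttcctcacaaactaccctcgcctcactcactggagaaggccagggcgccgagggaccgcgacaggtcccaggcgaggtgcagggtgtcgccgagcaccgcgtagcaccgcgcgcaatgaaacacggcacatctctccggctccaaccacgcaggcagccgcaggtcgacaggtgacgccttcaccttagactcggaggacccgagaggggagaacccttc

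Among the 18 cell cycle genes that passed, 16 had a listed promoter: 3 held an E2F motif (18.8%), 11 held CCAAT (68.8%), 8 held TTTGAA and 1 held TGACGTCA (6.25%). Over all 27025 promoters of the table, 1 per gene, the shares were 1.91%, 37.9%, 18.1% and 1.88%, and over the 9901 promoters of kept genes they were 3.58%, 38.9%, 11.9% and 3.29%. All 48 listed promoters of kept members of the 2 lists gave 20.8%, 68.8%, 45.8% and 4.17%. Nusap1 held none of these letters in this window.

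Other pathways had few calls. Of all genes tested 3.78% passed, so a single call in a list says little about that list. Fos, Egr2 and Klf6, immediate-early transcription factors also induced by tissue dissociation, were the 3 of 19 that rose, by 2.08 ± 0.44 (adjusted p = 0.0338), 1.81 ± 0.40 (adjusted p = 0.0372) and 1.27 ± 0.22 (adjusted p = 0.0129). Another probe set of Klf6 passed in the opposite direction (-1.6). Fos was lost in all 6 fits, Egr2 in all but that without 5-day control 2, and Klf6 without 5-day control 3 or 1 or 1-day control 3. Fzd5, a Wnt receptor, rose by 1.59 ± 0.31 (adjusted p = 0.0218) and Wnt8b, a ligand of the cortical hem, fell by 1.81 ± 0.40 (adjusted p = 0.0376, blocked 0.0605), the 2 of 25 Wnt genes to pass. Fzd5 was lost without 5-day control 3 or 2 or 1-day control 3 or 1, and Wnt8b without any but 1-day control 2. Mfng was the 1 of 21 Notch genes to pass. Ldha, the lactate dehydrogenase of glycolysis, fell by 1.28 ± 0.23 (adjusted p = 0.0152), 1 of 17, and was lost without any 5-day control or without 1-day control 3. Celsr1, a planar polarity cadherin, fell by 1.37 ± 0.30 (adjusted p = 0.0386), the 1 of 24 cadherin genes, and was at 0.09 without normalization and lost without any array but 1-day control 2. Arid1a, a subunit of the BAF chromatin remodeller, rose by 0.84 ± 0.20 (adjusted p = 0.0476, blocked 0.0548), the 1 of 21, and was lost in all 6 fits.

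Most metabolism and housekeeping lists, and the interferon list, had no gene past the threshold. Respiratory chain genes (0 of 32) had a median of -0.27 and cytosolic ribosomal proteins (0 of 18) -0.24. Lysosomal genes (0 of 27) had a median of 0.67, and under the replicate block Lgmn and Ctsh, lysosomal proteases, passed (0.0106 and 0.0071), though not with this block on the 6 control arrays alone (0.121 and 0.178). The DNA methylation, imprinted growth, growth factor, interferon, cholesterol and Cajal-Retzius lists also had none. Mdk, a growth factor, was at -1.58 ± 0.38 (adjusted p = 0.0529, blocked 0.0497). Ogn, a proteoglycan of the meninges, was robust at 7.42, 8.03 and 7.88 in 5-day controls against 5.31, 6.03 and 5.80 in 1-day controls (2.06 ± 0.29, adjusted p = 0.00416), and together with Pdgfra gave 2 of 10 meningeal markers higher. Hbb-y, embryonic haemoglobin, fell by 2.47 ± 0.52 (adjusted p = 0.0332), lost without any control array but 1-day control 3.

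**Figure D4:**
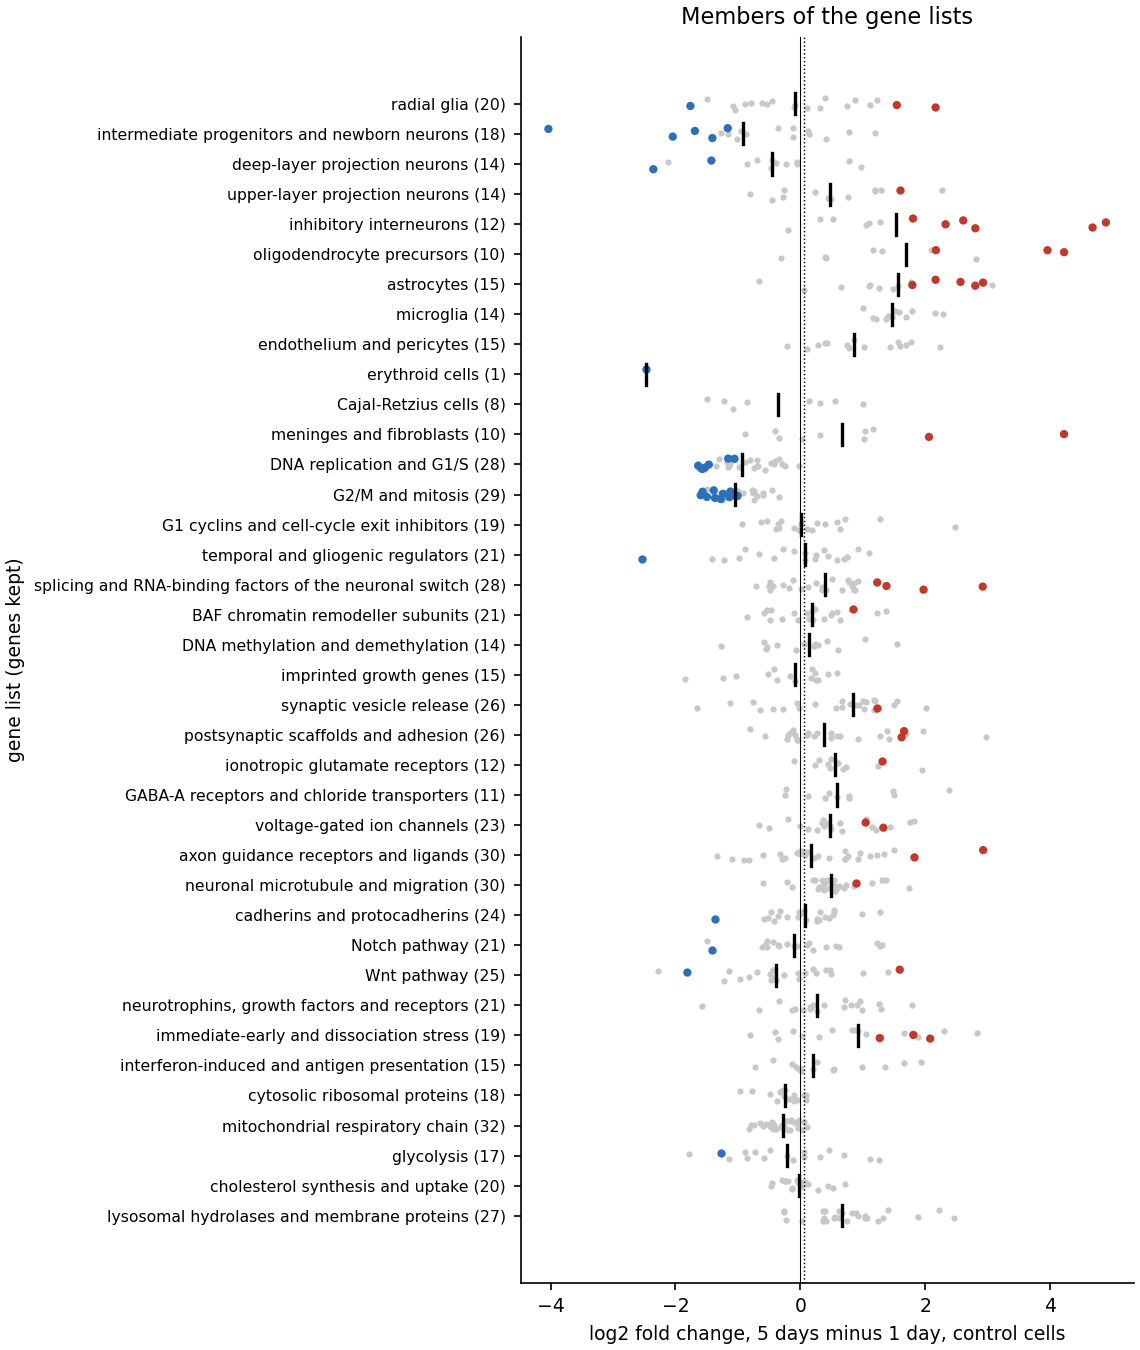
Log2 fold change, 5 days minus 1 day, of each kept member of 38 gene lists in control cells. Red and blue points passed the test as higher and lower, grey points did not, black bars are list medians and the dotted line is the median over all genes (0.063). The DNA replication and the G2/M and mitosis lists lie wholly below 0, while the list of G1 cyclins and exit inhibitors lies on both sides.

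By size, some of the leading genes were of less known identity, and several were read by 1 probe set. 1700065D16Rik was at 10.99, 10.89 and 11.14 in 5-day controls and 4.66, 4.26 and 4.54 in 1-day controls (6.52 ± 0.28, adjusted p = 4.28e-07), with the 1-day values close to the floor. Gm5802 (6.34 ± 0.28), whose 1-day values of 5.12, 4.09 and 4.32 were also close to the floor, and Macroh2a3, a histone variant gene (5.62 ± 0.22), were read by probe sets of the _x_at kind, which can read several transcripts, and Rpl39, a ribosomal protein, rose by 5.64 ± 0.44. Chmp4c, a membrane scission subunit, rose by 5.11 ± 0.58 and Cd9, a tetraspanin, by 3.89 ± 0.44. Dab2, an endocytic adaptor, rose by 3.81 ± 0.60. All of these were robust, which speaks only to leaving out arrays. 1700065D16Rik, Gm5802, Macroh2a3, Rpl39, Chmp4c and Cd9 had no other kept probe set for comparison. Those of Dab2 were at 0.27 and 1.54 without passing. Cirbp, a cold-inducible RNA-binding protein, rose by 4.59 ± 0.75 but was lost without 5-day control 2 (0.0561). Chd5, a neuronal chromatin remodeller, rose by 3.93 ± 0.77 but passed only without 1-day control 1, of the 6 fits (otherwise to 0.101).

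Lower genes of this rank included transcripts without a gene product named in the annotation. Gm34303 was at 5.73, 5.72 and 5.82 in 5-day controls and 10.72, 10.81 and 10.95 in 1-day controls (-5.07 ± 0.26, adjusted p = 1.74e-06). 4930448K20Rik fell by 4.65 ± 0.18, although its other probe set gave 0.12, and Gm16740 and Arhgap20os fell by 4.32 ± 0.32 and 3.83 ± 0.31. Fam219a fell by 4.64 ± 0.34 (adjusted p = 3.67e-05). Lrfn1, a synaptic adhesion protein, was at 6.18, 6.65 and 7.11 in 5-day controls and 10.48, 10.34 and 10.56 in 1-day controls (-3.81 ± 0.27, adjusted p = 2.75e-05). Mgat4b, an N-glycan branching enzyme, fell by 3.45 ± 0.34, Stard9, a mitotic kinesin, by 3.38 ± 0.34, Depdc1b (-3.33 ± 0.45), Ap1g2, a clathrin adaptor subunit, by 3.00 ± 0.34 and Ifi203, an interferon-inducible gene, by 2.92 ± 0.31. All of those were robust. Mab21l2 (-4.08 ± 0.95) and E030042O20Rik (-3.86 ± 0.86) were lost in each fit except that without 1-day control 1 (0.111 to 0.178), and 2700099C18Rik (-2.94 ± 0.51) without 5-day control 3 or 2 or 1-day control 3.

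Probe set kind mattered for the largest changes. Of 1597 kept _x_at probe sets 6.76% were called, against 2.95% of the 20605 _at probe sets, and they made up 38 of the 66 called probe sets with a log2 change of at least 4. Of the 464 called genes, 243 had another kept probe set: for 181 every other one moved the same way, for 51 another also passed, and for 1, Klf6, another passed in the opposite direction. A further 276 called probe sets belonged to genes whose brightest probe set did not pass. Some of the largest changes were among them: probe sets of Marcks (7.80), Acly (7.32) and Hsp90aa1 (-6.28). The brightest probe sets of these genes were at 0.46, -0.37 and 0.28.

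The change with time in control cells was set against that in ZNF335 knockdown cells. No probe set differed between the changes in limma (0 of 27022, 0%, with 0.9999 as the lowest adjusted p). Before adjustment, 55 lay under 0.05. With array weights, which ran from 0.101 to 6.64 and came from a gene-by-gene estimate because the likelihood estimate did not converge, 4189 probe sets had the greater change in control cells and 7187 in knockdown cells in signed value, and no other alternative gave any call. The 287 genes that rose in control cells had a median change of 1.57 there and 1.58 in knockdown cells, and 237 of them passed there too. The 177 that fell had medians of -1.35 and -1.24, and 136 passed. Both sets had the same sign in knockdown cells for every gene, where 7.14% of all genes were called (5.17% higher and 1.97% lower). The 5-day knockdown 2 had an Actb 3' to 5' ratio of 8.76, and its part in these values was not tested. The 1-day arrays shared a chip lot, but controls were on fluidics station 8 and knockdowns on station 7. Their hybridisation controls cut across treatment, at 10.6, 12.5 and 11.6 on 1-day controls 1, 2 and 3 and 10.9, 12.7 and 12.7 on 1-day knockdowns 1, 2 and 3. The part of such shared array traits in the agreement of the 2 changes was not tested. The 5-day controls 2 and 3 were on station 5, and all 5-day knockdowns on station 4 and another scanner. The 5-day control 2 also had a chip lot of its own, while 5-day control 1 shared lot, station and scanner with the knockdowns. A p above the threshold does not show that the changes were alike. H1f2, a linker histone, had the smallest unadjusted p of the genes named for this contrast (0.0175), with a change of -0.24 in control cells and 1.78 in knockdown cells, and an adjusted p not past the threshold.

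**Figure D5:**
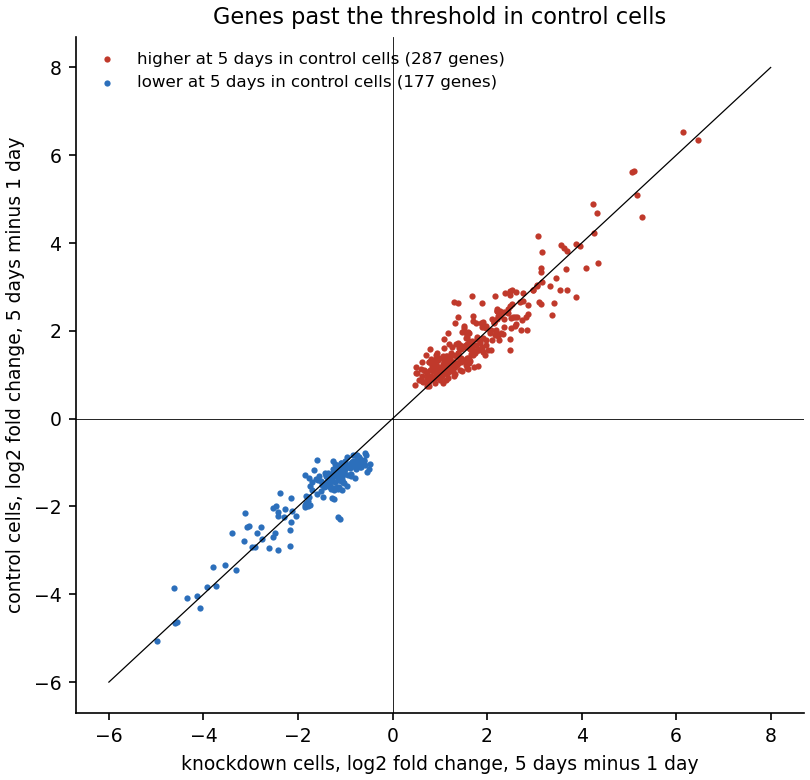
Log2 fold change, 5 days minus 1 day, in control cells (vertical axis) and knockdown cells (horizontal axis) for the 287 genes that rose (red) and 177 that fell (blue) in control cells. All lie in the quadrants of equal sign, around the line of equal change.

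Zfp335, read by 1 probe set, was at 6.71, 7.41 and 7.64 in 5-day controls and 7.79, 5.59 and 7.51 in 1-day controls, so the groups overlapped (0.29 ± 0.74, adjusted p = 0.896). Rest, the repressor of neuronal genes named in the series title, also overlapped, at 10.39, 9.62 and 9.83 against 9.51, 10.26 and 9.63 (0.15 ± 0.33, adjusted p = 0.882). Camk2b, a synaptic kinase subunit, was at 10.15, 10.75 and 10.92 in 5-day controls and 9.61, 6.35 and 6.92 in 1-day controls, and did not pass (adjusted p = 0.192). Top2a, a mitotic topoisomerase, was at -0.73 ± 0.20 (adjusted p = 0.0853), and Ccnd1, a G1 cyclin, at -0.31 ± 0.50 (adjusted p = 0.832).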

How the data were processed

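Control cells of 2 times were compared on Mouse430_2 arrays. The deposited table holds 1 linear intensity per probe set and array judging by its values; the sources used here do not give how the authors summarised, background-corrected or scaled probes. Instrument files gave chip lot, station and scanner only. Of 45101 probe sets, 64 controls were left out, 34945 of the rest had 1 gene symbol in the platform annotation, 932 had several and 9160 had none; only the first kind was named, with symbols updated through Entrez ID for 34741.

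The deposited intensities were quantile normalized over all 12 arrays, 16 was added and log2 taken, which understates changes of dim genes. The upper 60% by mean were kept. Group means were fitted with limma 3.58.1 in R 4.3.3 on all 12 arrays (8 residual degrees of freedom), with Benjamini-Hochberg adjustment over the kept probe sets. The fit was tested on simulated data, where it recovered changes of size 2 less often than changes of size 4. This was short of the recovery first asked for at size 2, so genes that did not pass may include true changes. Every simulated group had a spread set from the 5-day controls, the group of lowest median SD (0.21, against 0.53 in 1-day controls). Recovery and false calls at the spread of the real arrays were therefore not tested. A gene is its brightest kept probe set. The number of arrays limits the precision, and 2 arrays shared at most 0.397% of their values exactly.

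Named genes were, by rule, up to 15 each way of the largest change past the threshold without overlap, up to 4 each way per list (up to 2 where none passed), up to 5 each way for the difference from knockdown cells, and fixed landmark genes. Members, the 38 lists and the tests were chosen with earlier results of these data known. Replicate numbers come from the titles. Deviations of same-numbered 5-day and 1-day controls from their group means correlated at -0.53, -0.07 and 0.15, in the order of the numbers. These values do not show that the numbers pair the arrays of the 2 times, so blocked values are given only as an alternative. Alternatives covered normalization, pseudocount, filter, probe sets per gene, replicate and scanner blocks, variance, array weights and left-out arrays.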

Additional observations from a re-analysis of the deposited data

How the results depend on the processing

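Counts of probe sets are given as higher and lower at 5 days, against 547 and 339. With array medians brought to 1 level 8908 were higher, and without normalization 12860, and Mki67 (0.30 and 0.45) and Nusap1 (0.11 and 0.27) turned positive under these 2, as did Tpx2 (0.0745) and Celsr1 (0.0865) without normalization; the cause was not tested. Without the filter 922 and 778 passed, and with trended, robust variance 836 and 550. With probe sets averaged per gene 321 and 203 passed, out of fewer features tested. With the scanner as a block, which gave the counts of leaving out 5-day control 1, 178 and 100 passed. Leaving out 1 control array gave 178 and 100 (5-day control 1), 148 and 100 (5-day control 2), 162 and 143 (5-day control 3), 402 and 213 (1-day control 1), 324 and 209 (1-day control 2) and 193 and 114 (1-day control 3). On the 6 control arrays alone 241 and 141 passed (255 and 146 normalized over these 6), and with 1-day controls 1 and 3 left out 96 and 54. With the replicate block 640 and 349 passed on all 12 arrays, and beside the genes named with a blocked value B2m and Gabra2 gained a call (0.0272 and 0.0439), while other calls of named genes were unchanged; on the 6 control arrays, chosen after seeing the data, 29 and 17 passed with this block. Array weights, which ran from 0.101 to 6.64, gave 3944 and 3302, and for the difference between control and knockdown changes 4189 and 7187 in place of 0 and 0, the only alternative with any call for it; the weights came from limma's gene-by-gene method, since its likelihood method did not converge, and the cause was not tested. The pseudocount, the stricter filter, _x_at left out and the 3 1-day arrays with strong hybridisation controls left out (the last 2 chosen after seeing the data) kept the counts within 1.5 times. The spread of the 1-day arrays and the 3 arrays per group limit what can be called.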

Other observations

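Genes of motile cilia, the beating organelles that ependymal cells carry on the ventricle wall, were often higher at 5 days. The 50 genes of this list were chosen after values were seen, so no test is given for them as a group: 33 were kept, 28 of these had a fold change above 0, 9 passed as higher and none as lower, and the median was 1.39 in control cells and 1.53 in knockdown cells. Ak7, an adenylate kinase of cilia, was at 9.37, 10.39 and 9.46 in 5-day controls and 6.67, 7.45 and 6.33 in 1-day controls (2.92 ± 0.45, adjusted p = 0.00737), and passed in limma with any 1 control array left out. Dynlrb2, a dynein light chain, was at 9.38, 10.23 and 9.30 in 5-day controls against 6.52, 7.35 and 6.25 in 1-day controls (2.93 ± 0.51, adjusted p = 0.0137), and was lost without 5-day control 2 or 1 or 1-day control 3 (to 0.0774). Foxj1, the master regulator of motile ciliogenesis, was at 6.85, 8.14 and 7.57 in 5-day controls and 6.10, 5.27 and 4.99 in 1-day controls and did not pass (adjusted p = 0.0853). The 5-day control 2 had the highest value of these 3 genes. Without this array, or without 1-day control 3, 8 of the 9 calls were lost and 1, Ak7, was left, and Cfap65 and Ppp1r32, ciliary genes, were lost in all 6 fits. The list median was 1.57 without 1-day control 2 and 1.65 without 5-day control 1.

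Regulators of the ventral and the dorsal forebrain were also listed after values were seen, so their counts are a description, and they repeat genes given above: 6 of 9 called ventral genes and 4 of 7 called dorsal genes. Of 13 kept ventral genes, 9 were higher and none lower, with 11 above 0 and a median of 2.43. Isl1 (-0.21) and Ebf1 (-1.06), factors of striatal neurons, were below 0 without passing, and without 5-day control 2, 5 of the 9 calls were lost. The 9 called ventral genes include Gad1 and Gad2, the GABA-synthesising enzymes, and Gsx2, a homeobox factor of the lateral ganglionic eminence. Gsx2 was at 7.56, 8.15 and 8.87 in 5-day controls and 5.76, 6.12 and 5.41 in 1-day controls (2.43 ± 0.39, adjusted p = 0.00968). It was lost only without 1-day control 3 (0.051). Gad1 and Gad2 were lost with any control array but 1-day control 1 left out (0.0746 to 0.131). Of 18 kept dorsal genes, 7 were lower and none higher, with 17 below 0 and a median of -0.90, while Tbr1, a deep-layer factor, was at 0.78 without passing. Without 1-day control 3, 4 of the 7 calls were lost. Dmrt3, a dorsal patterning factor, was at 6.11, 5.80 and 6.33 in 5-day controls and 9.56, 8.82 and 8.56 in 1-day controls (-2.90 ± 0.33, adjusted p = 0.00102), and passed with any 1 control array left out. Emx1, the dorsal homeobox factor, was at 8.58, 9.53 and 9.59 in 5-day controls and 11.00, 11.10 and 10.99 in 1-day controls (-1.79 ± 0.30, adjusted p = 0.0126), and was lost without 1-day control 3 (0.0521). Meis2, which is expressed in both regions, did not differ in either direction beyond its error (0.08 ± 0.20).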
